A study of Rattus norvegicus with 4 samples.

Results

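The question put to these data is whether the difference between rat mammary glands after N-methyl-N-nitrosourea (MNU) and untreated glands depends on an earlier pregnancy. It was measured as a difference of differences, the parous+MNU array minus the parous array, less the AMV+MNU array minus the AMV array, on the log2 scale. All 4 arrays of the series enter it, 1 array for each group of 5 Lewis rats. In the parous group litters were born when the mothers were 87 days old and were nursed for 21 days, and 28 days of involution followed up to 136 days. AMV, the age-matched virgin rats, never carried a litter and were of the same 136 days. The parous+MNU and AMV+MNU rats had 1 intraperitoneal injection of 50 mg/kg MNU at 136 days and were examined at 157 days, 3 weeks later. Both MNU groups were therefore also older, and MNU cannot be told apart from age or, in parous rats, from longer time after weaning. The sources used here do not say if RNA from the 5 rats went onto the array as a pool.

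MNU methylates DNA and gives rise to mammary tumours in rats, fewer of them where a full-term pregnancy came before exposure. Involution removes most of the milk-secreting epithelium after weaning and returns the gland to a fat-rich state. Dividing cells turn on a shared set of genes for DNA replication and mitosis, and fat cells use another set to build fatty acids from glucose. These sets and the milk protein genes are among those described here.

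Of 20500 features, 19047 had a value on all 4 arrays, 10345 of these passed the intensity filter, and 5758 genes were used, each through its brightest feature. Values are normalized intensity units, and a value at the floor of 174.4 units is an upper limit. Median deposited intensities ran from 179 to 238 units and blanks from 390 to 795 per array, with more blanks on both MNU arrays. Epithelial markers were well above the floor on every array, with Epcam between 5139 and 6760 units and Krt19 between 2663 and 4296 units. The tissue is bulk, so that fewer cells of a type and less RNA per cell cannot be told apart.

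The MNU difference was at least 2-fold lower in parous than in virgin glands for 22 genes (0.382% of the 5758) and at least 2-fold higher for 4 (0.0695%), 26 in all (0.452%). Of the 22 lower genes, 12 were on at least 1 of the gene lists used here and 10 were on none. Without scaling of the arrays the split was 67 lower and 1 higher, when the median of all genes was -0.30. It was 45 lower and 24 higher when a background was subtracted. With 1 array per group the contrast leaves no residual degree of freedom, so no p-value exists and no replicate check can be made. The median over all genes was -0.01 and the robust SD 0.236 on the log2 scale. Among 634 genes with a pair of kept features, both features had the same sign in 335. The SD of the difference within a pair, divided by the square root of 2, was 0.234. That value is not far below the plain SD over all genes, 0.262. A small difference in a single gene thus cannot be told from the difference between features.

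**Figure D1:**
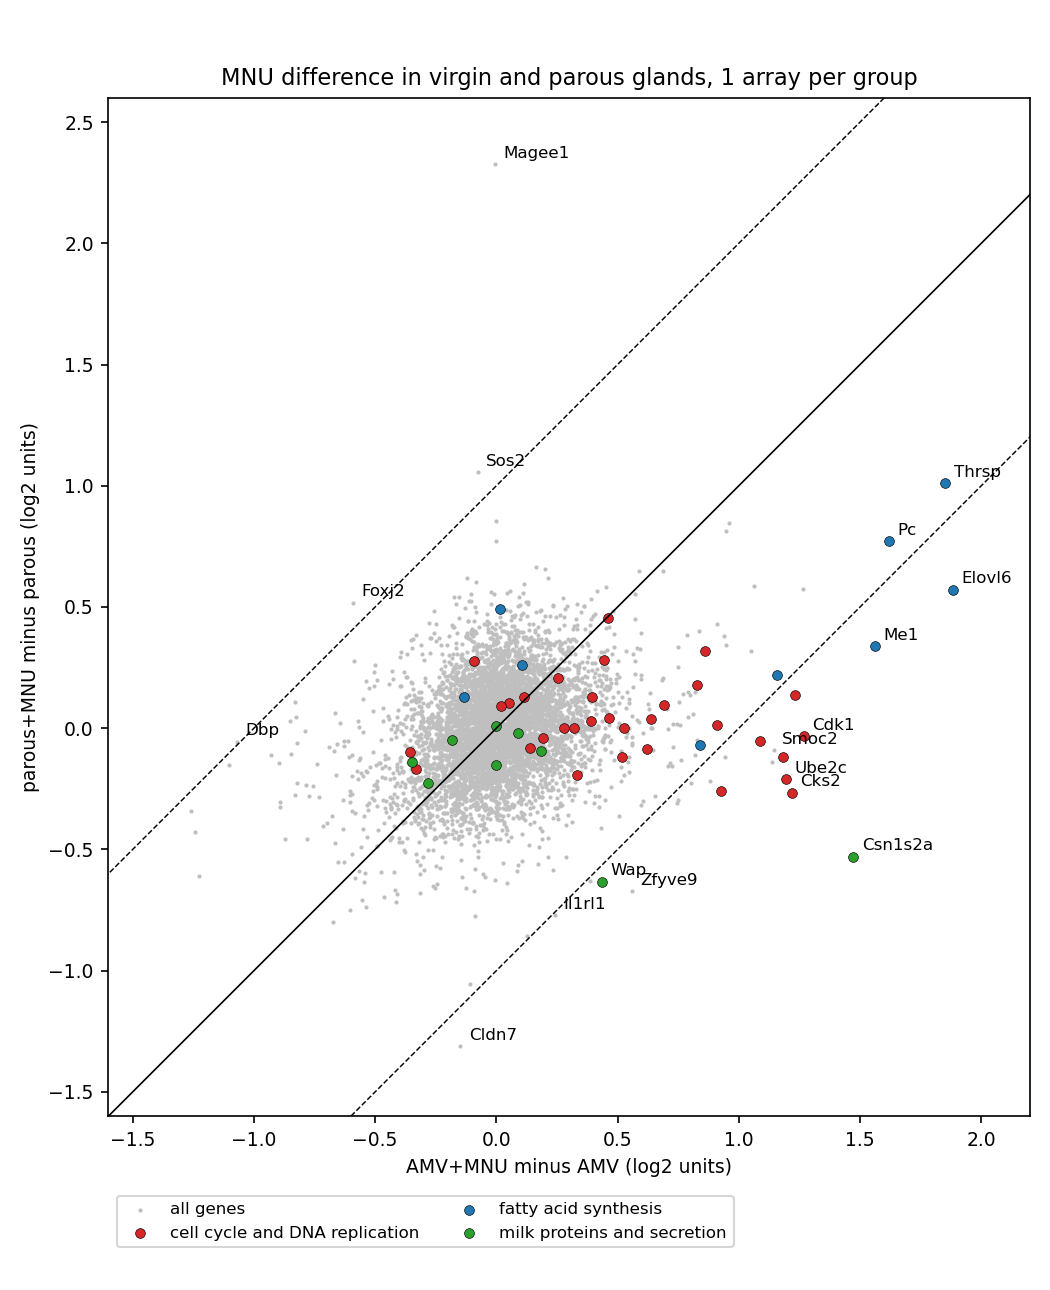
Log2 difference of MNU minus untreated in virgin glands (x axis) and in parous glands (y axis) for 5758 genes, 1 array per group. The solid line marks equal differences and the dashed lines a 2-fold difference of differences. Cell cycle genes (red) spread to the right at parous values near 0, 6 of the 9 fatty acid synthesis genes (blue) lie far to the right and 3 near the centre, and Magee1 lies alone at the top.

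A gene was assigned to a single array when that array lay farthest from the median of the other 3, and those 3 spanned at most 0.5 and at most 50% of that distance. By this rule the AMV+MNU array alone set 8 of the 22 lower genes (0.139% of all), the AMV array 4 (0.0695%) and the parous array 1 (0.0174%), and 9 had no single array. Of the 4 higher genes, the parous+MNU array set 2 (0.0347%), which passed the filter only through it, and no single array the other 2. These shares are those of the rule over the same genes, so nothing is read from them. In 21 of the 22 lower genes the virgin pair was higher after MNU, and in 19 the parous pair was lower. In 9 genes (0.156%) the AMV+MNU array alone lay at least 2-fold from the median of the others, each time above. The median of the virgin differences over the 22 was 1.01 and that of the parous differences -0.22. The 22 genes were chosen by the contrast of these differences, which favours such signs and medians, so nothing is read from them. Over all genes the AMV+MNU array was the farthest in 28.7% and the parous+MNU array in 28.8%, against 22.5% for parous and 19.9% for AMV.

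**Figure D2:**
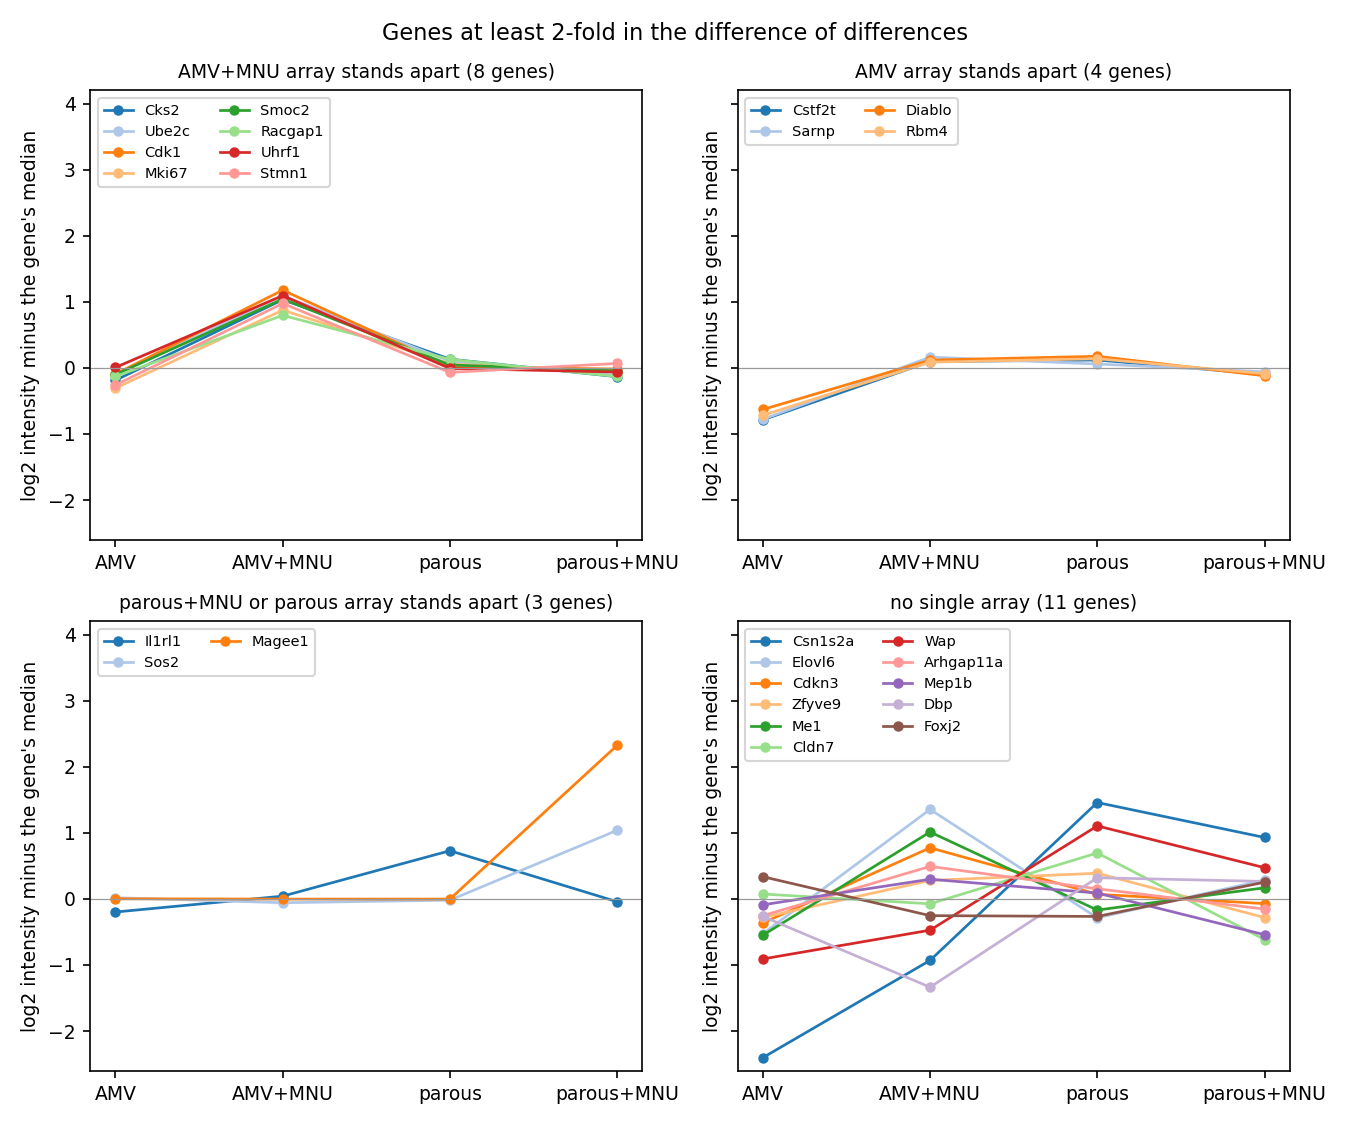
Log2 intensity on each of the 4 arrays, minus the median of the gene's 4 values, for the 26 genes at least 2-fold in the difference of differences. The 8 genes at upper left are high on AMV+MNU and near level elsewhere, the 4 at upper right are low on AMV alone, the 3 at lower left stand out on parous or parous+MNU, and the 11 at lower right have no single array that sets them. Lines join the values of a gene and carry no order of the groups.

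Cell cycle genes made up 7 of the 8 genes at least 2-fold lower that the AMV+MNU array set. Among these 7, Racgap1 and Uhrf1 passed the intensity filter only through the AMV+MNU array, so their inclusion depends on that array. Of these 7, a strict filter, which every array must pass, lost Racgap1, Uhrf1 and Cks2. Of any size, the AMV+MNU array set 18 of the 32 used members and 624 of the 5758 genes. Of 32 used members of the cell cycle and DNA replication list, 7 were at least 2-fold lower in the difference of differences (0.382% of all genes). At least 1.5-fold lower were 13 members, where 2% of all genes were. No member was 1.5-fold higher, where 1.22% of all genes were. The AMV+MNU array was the farthest and the highest in 24 of the 32 members, beside 17% of all genes. The list median was -0.47, with 26 members below 0, beside 52% of all genes. These list counts include members that passed the intensity filter only through AMV+MNU, such as Racgap1, Uhrf1 and Ccnb2. Ccnb2 as deposited read 149 on parous, 141 on AMV, 123 on parous+MNU and 219 on AMV+MNU. The filter favours a high AMV+MNU value in such members, so nothing is read from their part of the counts. In virgin glands the median MNU difference of the list was 0.46 and in parous glands 0.01. Of the 56 genes listed, 42 had a feature, 2 of these were blank on some array and 8 lay below the filter.

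Cks2, a small subunit that binds cyclin-dependent kinases, read 231 units on parous, 185 on AMV, 192 on parous+MNU and 430 on AMV+MNU. Only the AMV+MNU value stood apart, and the difference of differences was -1.49, a 2.80-fold difference. Ube2c, the enzyme that passes ubiquitin to mitotic cyclins, read 251, 219, 217 and 500 units in the same order. Its difference of differences was -1.41, from 1.20 in virgin and -0.21 in parous glands.

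Cdk1, the kinase that drives entry into mitosis, read 381 units on parous, 353 on AMV, 372 on parous+MNU and 851 on AMV+MNU. The first 3 values lie within 0.11 of one another on the log2 scale and the fourth is 2.41-fold above AMV, which gave -1.30. Mki67, the gene of the proliferation marker Ki-67, read 368, 286, 339 and 648 units and also gave -1.30. Stmn1, the microtubule regulator stathmin, was the brightest of the 7 at 1568, 1375, 1723 and 3232 units, with -1.10. Stmn1 and Uhrf1 lie outside the 12 lowest genes and were chosen after their values were seen.

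For Racgap1, which organises the spindle midzone in cell division, AMV and parous+MNU lay at the floor, parous read 209 and AMV+MNU 331 units, so that -1.18 is a bound. Uhrf1, which copies DNA methylation in replicating cells, read 181 units on parous, 183 on AMV and 389 on AMV+MNU, with parous+MNU at the floor, so that -1.14 is a bound. Each has other features that lay at the floor on all 4 arrays. Kif11, a spindle motor, Dut, which clears dUTP, and Mcm5, a subunit of the replicative helicase, were also set by the AMV+MNU array, at -0.90, -0.70 and -0.65.

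Other members did not follow. Cdc20, an activator of the anaphase-promoting complex, read 610, 627, 649 and 635 units on parous, AMV, parous+MNU and AMV+MNU, and Bub1, a spindle checkpoint kinase, 363, 360, 390 and 374 units. Their differences of differences were 0.07 and 0.05. Mcm2, another helicase subunit, stood at 0.01, Aurkb at 0.16, Rrm2 at 0.26 and Cdc25b at 0.37. For Mcm6 both pairs were higher after MNU by a like amount, 0.46 and 0.45. Pcna had no value on parous+MNU and entered no comparison, and Top2a did not pass the filter.

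A pair of genes outside the list showed a similar order of values. Cdkn3, a phosphatase that acts on cyclin-dependent kinases, read 295 units on parous, 219 on AMV, 268 on parous+MNU and 481 on AMV+MNU. The other 3 arrays spanned 0.43, just over 50% of the distance of 0.84 and so more than the rule allows, and the difference of differences was -1.28. Arhgap11a, a GTPase-activating protein of dividing cells, read 374, 282, 302 and 472 units and gave -1.05; it was chosen after its values were seen. Smoc2, a secreted calcium-binding matrix protein, was the 1 gene of the 8 at least 2-fold lower and set by AMV+MNU that is not on the cell cycle list. It read 1098 units on parous, 992 on AMV, 1031 on parous+MNU and 2191 on AMV+MNU, a difference of differences of -1.23. The other feature of Smoc2, below the filter, stood at -0.03.

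**Figure D3:**
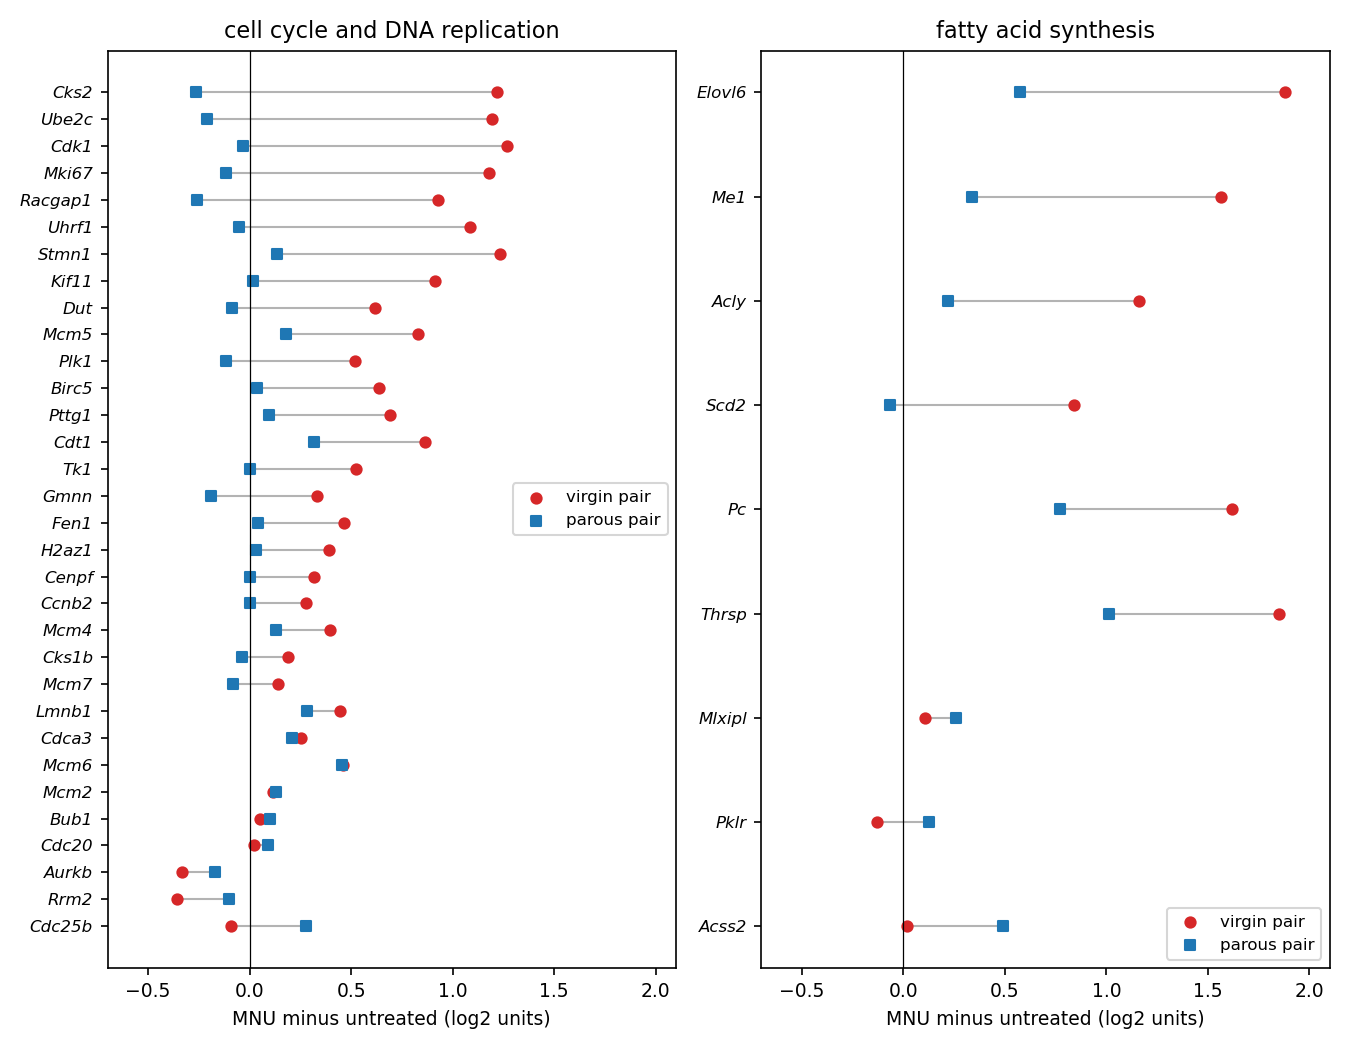
Log2 difference of MNU minus untreated in the virgin pair (red circles) and the parous pair (blue squares) for the 32 cell cycle and the 9 fatty acid synthesis genes used. Most cell cycle members sit near 0 in the parous pair and to the right in the virgin pair, whereas 6 fatty acid genes are shifted to the right in the virgin pair and 3 are not.

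Promoters of cell cycle genes in mammals are known to carry CCAAT boxes. A cell cycle element there reads TTTGAA in one common form and in another form TTTAAA, and E2F factors bind sites such as TTGGCGC. The sequences here are RefSeq promoters of GRCr8, from 250 bases before to 50 after the start of each gene, shown for members of the list that were set by AMV+MNU and, for contrast, for Scd2 of the fatty acid synthesis list. They lie at chr17:13727470-13727769 (minus strand), chr20:19265043-19265342 (plus), chr1:199952544-199952843 (minus) and chr1:253118127-253118426 (plus). Capitals mark these motifs and the E-box CACGTG on either strand.
Cks2: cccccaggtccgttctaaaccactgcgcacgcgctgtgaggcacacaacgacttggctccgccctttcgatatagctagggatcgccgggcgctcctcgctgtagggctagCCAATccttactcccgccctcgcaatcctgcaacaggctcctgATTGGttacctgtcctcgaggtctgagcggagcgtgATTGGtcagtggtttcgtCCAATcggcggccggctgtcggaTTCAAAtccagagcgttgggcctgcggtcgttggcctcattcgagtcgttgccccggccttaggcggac
Cdk1: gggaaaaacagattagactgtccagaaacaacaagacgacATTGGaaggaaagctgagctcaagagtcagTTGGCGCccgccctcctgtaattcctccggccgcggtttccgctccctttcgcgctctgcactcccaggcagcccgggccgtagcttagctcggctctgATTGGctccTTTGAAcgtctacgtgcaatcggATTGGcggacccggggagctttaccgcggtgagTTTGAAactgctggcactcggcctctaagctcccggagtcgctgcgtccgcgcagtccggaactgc
Mki67: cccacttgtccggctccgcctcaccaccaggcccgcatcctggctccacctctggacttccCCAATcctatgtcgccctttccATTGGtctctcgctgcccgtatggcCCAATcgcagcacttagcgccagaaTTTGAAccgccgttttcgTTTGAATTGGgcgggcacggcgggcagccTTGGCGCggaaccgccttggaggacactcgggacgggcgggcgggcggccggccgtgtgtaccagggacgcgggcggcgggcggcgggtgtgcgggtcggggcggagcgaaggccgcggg
Scd2: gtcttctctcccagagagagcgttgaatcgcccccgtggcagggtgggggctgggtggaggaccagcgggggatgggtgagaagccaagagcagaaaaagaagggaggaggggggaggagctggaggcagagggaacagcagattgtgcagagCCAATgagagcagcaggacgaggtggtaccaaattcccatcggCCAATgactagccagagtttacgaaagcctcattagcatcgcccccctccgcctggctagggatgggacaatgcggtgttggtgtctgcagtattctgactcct

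CCAAT was found 4 times in Cks2, 3 times in Cdk1, 4 times in Mki67 and 2 times in Scd2. TTTGAA was found 1 time in Cks2 and 2 times each in Cdk1 and Mki67, and TTGGCGC 1 time each in Cdk1 and Mki67. Of the 32 cell cycle genes 27 had a promoter, and 77.8% of these held CCAAT, against 37.7% of all 27457 promoters of equal length. TTTGAA was in 48.1% against 18.1%, TTTAAA in 18.5% against 13.5%, TTGGCGC in 33.3% against 2.43% and CACGTG in 14.8% against 6.65%. Against the 4768 promoters of the genes used, the closer comparison, the shares in the same order of motifs were 38.0%, 10.9%, 8.81%, 4.38% and 9.82%. A CCAAT on the opposite strand can share letters with TTGGCGC, which occurred in 2 of the 27 promoters. Members with little difference hold the motifs as well, and Cdc20 at 0.07 had 2 CCAAT and 1 TTTGAA. Uhrf1 had 1 CCAAT and none of the other motifs. Among 7 promoters of the fatty acid synthesis list 5 held CCAAT and none held the E-box, the E2F site or TTTGAA. A match is a description of letters and says nothing about binding.

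Fatty acid synthesis genes had a median of -0.85 over 9 used members, the lowest of the lists with at least 5 used genes when the intensity filter was applied, with 6 members at least 1.5-fold lower (2% of all genes), 2 at least 2-fold lower (0.382%) and none 1.5-fold higher (1.22%). Unlike the cell cycle genes, 8 of the 9 were higher after MNU in each pair, with a median of 1.16 in virgin and 0.34 in parous glands. The medians of all genes were 0.007 and 0. Elovl6, which lengthens palmitate, read 218 units on parous, 184 on AMV, 323 on parous+MNU and 678 on AMV+MNU. Both MNU arrays were above both untreated arrays, AMV+MNU the most, and the difference of differences was -1.31 (1.88 in virgin, 0.57 in parous). Me1, the malic enzyme that supplies NADPH, read 327, 251, 413 and 742 units and gave -1.23, from 1.56 and 0.34. The strict filter on every array lost Elovl6.

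For Thrsp, a lipogenic regulator, the values were 2504 units on parous, 1955 on AMV, 5050 on parous+MNU and 7060 on AMV+MNU. Pc, pyruvate carboxylase, read 1802, 1439, 3078 and 4418 units. Their differences of differences, -0.84 and -0.85, arose between pairs that were both higher, 1.85 and 1.01 for Thrsp and 1.62 and 0.77 for Pc. For these genes the untreated parous array was also above AMV, by 0.36 and 0.32.

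Acly and Scd2 were set by the AMV+MNU array alone. Acly, which makes cytosolic acetyl-CoA, read 517 units on parous, 466 on AMV, 602 on parous+MNU and 1041 on AMV+MNU, with -0.94. Scd2, a desaturase that makes monounsaturated fatty acids, read 742, 861, 708 and 1543 units, with -0.91, and in parous glands it was not higher after MNU (-0.07). The other 3 members stood above 0, Mlxipl, a transcription factor that responds to glucose, at 0.15, Pklr at 0.26 and Acss2, which activates acetate, at 0.47. Fasn had no value on either MNU array and entered no comparison. Without the intensity filter, which adds dim genes, the list median was -0.21, above the -0.27 of the cell cycle list.

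Neighbouring metabolic lists leaned the same way by smaller amounts. Of 11 genes of triglyceride storage and adipocytes 9 lay below 0, beside 52% of all genes, with a median of -0.15. Dgat1, which completes triglyceride synthesis, stood at -0.74, Gpd1, which makes glycerol phosphate, at -0.69, and Dgat2 at -0.49. Gpd1 read 3144 units on parous, 3499 on AMV, 4687 on parous+MNU and 8408 on AMV+MNU. Dgat1 was low on AMV, at 1149 units against 1668, 1723 and 1987 on parous, parous+MNU and AMV+MNU.

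In cholesterol synthesis 10 of 11 members lay below 0, against the same 52%, with a median of -0.15 and Sqle, squalene epoxidase, lowest at -0.88. Sqle read 239, 195, 231 and 347 units on parous, AMV, parous+MNU and AMV+MNU. Oxidative phosphorylation had 18 of 19 members below 0 and a median of -0.16, and the proteasome list 19 of 21 and -0.19, again beside 52% of all genes. Neither list held a gene 2-fold lower, and the lowest members were Cox7a2 at -0.43 and Psmc6 at -0.70. Pdk1, a kinase that restrains pyruvate dehydrogenase, was lowest in glycolysis and glucose use at -0.73. Fatty acid oxidation was split evenly, 8 members above and 8 below 0.

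The sum over storage and adipocyte genes was highest, and that over luminal genes lowest, on AMV+MNU. The summed level of the 11 storage and adipocyte genes was 12350 units on parous, 13049 on AMV, 15154 on parous+MNU and 21254 on AMV+MNU. In that list Gpd1 alone read 3499 units on AMV and 8408 on AMV+MNU. Adipoq, Cfd, Lpl, Fabp4 and Cd36 were blank on at least 1 array. The summed level of the 13 luminal epithelial genes was 23244, 20499, 20242 and 17007 units. In that list Epcam alone read 6711 units on AMV and 5139 on AMV+MNU. The median log2 level of the luminal list was instead lowest on parous, at 8.85, 9.14, 9.24 and 8.98 in the same order. Of the 13 luminal genes 11 were lower after MNU in virgin glands, where the median of all genes was 0.007. The luminal median difference of differences was 0.03, with 8 of 13 above 0. The part of these cell types in the cell cycle and fatty acid values was not tested. The 10 T and cytotoxic cell genes summed to 3923, 3126, 3993 and 3143 units, with a median difference of differences of -0.06. For 10 macrophage and myeloid genes the median was -0.05, for 10 myoepithelial genes -0.01 and for 5 fibroblast genes 0.00. Of the luminal genes Ehf lay at the floor on 2 arrays and Aldh1a3 on 1, and no storage, myeloid, myoepithelial or fibroblast gene used was at the floor on any array.

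**Figure D4:**
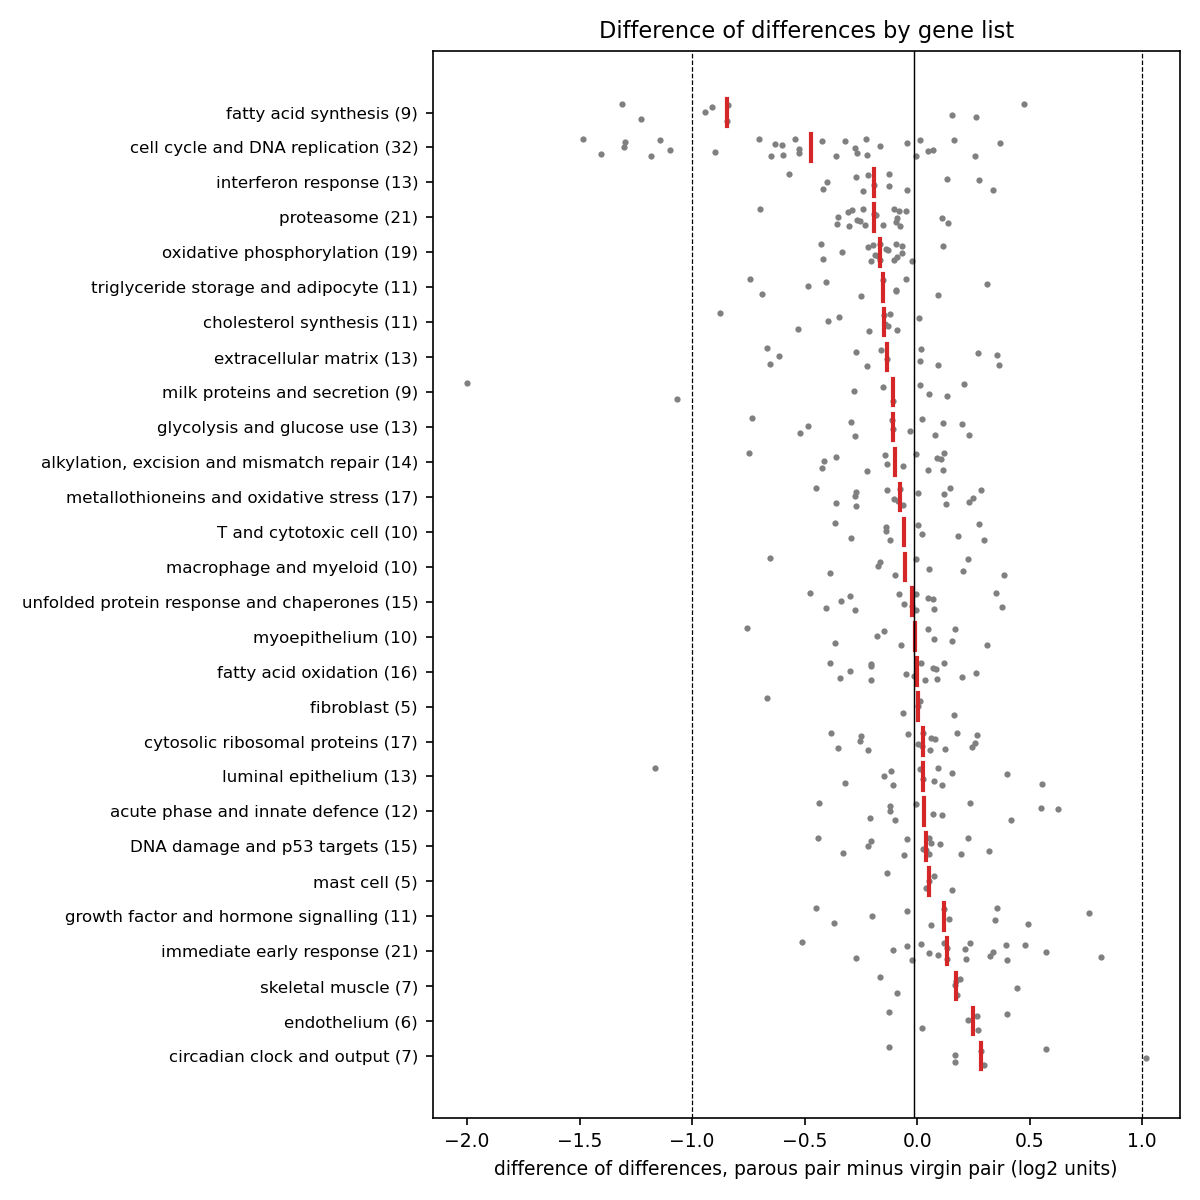
Difference of differences for the used members (grey points) of each list with at least 5 used genes, with the number used in brackets and the list median as a red bar. The solid line is the median of all genes and the dashed lines mark 2-fold. Fatty acid synthesis and cell cycle medians lie at -0.85 and -0.47, and clock genes at the other end at 0.28.

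Milk protein genes gave a difference that no single array set. Csn1s2a, an alpha-S2 casein, read 11348 units on parous, 780 on AMV, 7864 on parous+MNU and 2165 on AMV+MNU. Both parous arrays exceeded both virgin arrays, and after MNU the parous value was lower by 0.53 while the virgin value was higher by 1.47, which gave -2.002, the lowest value of all genes. The parous excess over virgin was 3.86 without and 1.86 with MNU. Wap, the gene of whey acidic protein, followed the same order at 6685, 1655, 4313 and 2238 units, with -0.63 in parous and 0.44 in virgin glands and a difference of differences of -1.07.

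The other milk and secretion genes that could be used differed little. The median of the 9 used members was -0.11, with 5 below 0. Of 17 with a feature, 6 were blank on at least 1 array. Muc1, an apical mucin, stood at -0.11, Xdh, which coats milk fat globules, at 0.05, Mfge8 at 0.13, Prlr, the prolactin receptor, at 0.01 and Stat5a, its effector, at 0.21. For Xdh the parous arrays were above the virgin arrays with and without MNU, at 2774 and 2372 against 1887 and 1554 units, a gap of 0.56 without and 0.61 with MNU. Csn2, the gene of beta-casein, was blank on both parous arrays and entered no comparison. Jchain, which links secreted antibodies and marks plasma cells, was also far higher in parous glands, 4730 and 3871 against 1058 and 1080 units, with -0.32.

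A further group was lower in the parous pair. Cldn7, a claudin of epithelial tight junctions, read 2454 units on parous, 1595 on AMV, 989 on parous+MNU and 1439 on AMV+MNU. Parous was the highest array and parous+MNU the lowest, a difference of -1.31 in parous and -0.15 in virgin glands and a difference of differences of -1.16. The luminal list had a median of 0.03, with 8 of 13 members above 0. Epcam stood at 0.40, Cdh1, the gene of E-cadherin, at 0.55 and Krt19 at -0.12. Krt19 as deposited was lower after MNU in both pairs, 4750 and 2190 in parous and 4080 and 2820 in virgin glands. Deposited values are not scaled between arrays, and parous+MNU was the dimmest array, with a median of 179 units against 226 on parous. The size of the parous fall in these Krt19 values is therefore not read. Ehf, set by the parous array and floored on both MNU arrays, stood at -0.32. Ehf passed the intensity filter only through the parous array, so nothing is read from that array setting it. Epcam was set by a low AMV+MNU array. Zfyve9, an anchor for Smad proteins, read 449, 282, 282 and 416 units and gave -1.23, with parous and AMV+MNU both above the other 2 arrays. Its other kept feature stood at -0.20.

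Il1rl1, the receptor of interleukin 33, was the 1 gene at least 2-fold lower set by the parous array, at 356 units there against 187, 209 and 221 on AMV, parous+MNU and AMV+MNU, with -1.01. Mep1b, the beta subunit of the protease meprin, read 312, 276, 202 and 361 units and gave -1.02. Both were chosen after their values were seen, and they are the lower genes closest to the threshold. Just outside it were Anp32a at -0.98, Kif3b at -0.94 and Acly at -0.94, and on the other side Kazn at 0.95, Prph2 at 0.94 and Or4c52 at 0.92. Kif3b passed the intensity filter only through the parous array.

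The 4 genes at least 2-fold lower that the AMV array set lay in 1 place on the array. Cstf2t and Sarnp, both of mRNA processing and export, Diablo, a mitochondrial protein that frees caspases, and Rbm4, an RNA-binding protein, were chosen after their values were seen. Cstf2t read 565 units on AMV against 1058, 911 and 1041 on parous, parous+MNU and AMV+MNU, and Diablo 690 against 1207, 984 and 1160. The differences of differences of Cstf2t, Sarnp, Diablo and Rbm4 were -1.10, -1.06, -1.04 and -1.03. If feature numbers are read as a grid, row after row, which is an assumption, all 4 stand in the last row. There the AMV array was at least 0.5 below the median of the others in 23 of 104 features, against at most 6 in any other row. Its median departure was -0.14 on AMV, where the other rows ranged from -0.07 to 0.08. The second kept feature of Cstf2t stood at -0.13, and the second feature of Diablo was at the floor. Without the last row 18 genes were at least 2-fold lower and none was set by AMV. No cell cycle, fatty acid or milk gene among the 22 lies in that row, but Wap lies in the row before it. There the AMV median departure was -0.03, and AMV was at least 0.5 below in 6 of 103 features. The median difference of differences of that row was -0.11, the lowest outside the last row.

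**Figure D5:**
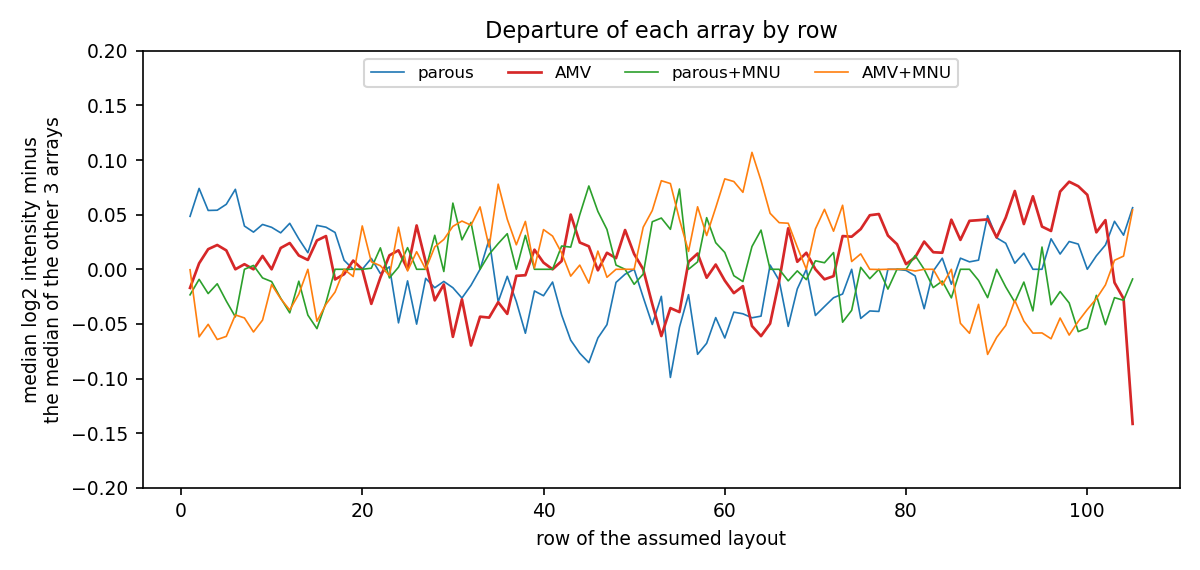
Median over the features of each row of the assumed layout of the log2 intensity on 1 array minus the median of the other 3, for the 4 arrays. In all other rows the 4 arrays range from -0.10 to 0.11, and in the last row the AMV array (red) drops to -0.14.

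The 4 genes with a higher difference in parous glands shared no list. Magee1, a MAGE family protein, read 875 units on parous+MNU and 175 on AMV, with parous and AMV+MNU floored, so that 2.33 is a bound and the difference at least 5.03-fold. Its other feature was at the floor on all 4 arrays. Sos2, an exchange factor that activates Ras, read 389 units on parous+MNU against 187, 192 and 182 on parous, AMV and AMV+MNU, with 1.13, and its other feature was also at the floor. Magee1 and Sos2 passed the intensity filter only through parous+MNU, and a strict filter on every array lost both. Foxj2, a forkhead factor, read 352 on parous, 535 on AMV, 505 on parous+MNU and 355 on AMV+MNU, a crossed pattern of 1.11. Its second kept feature stood at 0.42.

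Dbp, a clock output factor whose transcript cycles daily, read 3016 units on parous, 2009 on AMV, 2902 on parous+MNU and 956 on AMV+MNU. AMV+MNU was lowest, with -1.07 in virgin and -0.06 in parous glands and a difference of differences of 1.02. Tef, a factor of the same family, had AMV+MNU as its single driving array, which Dbp did not, at 486 units against 782, 720 and 786 on parous, AMV and parous+MNU, with 0.57. Of 7 used clock genes 6 lay above 0, beside 48% of all genes, and their median was 0.28. Per1, Per2 and Per3, repressors in the clock, stood at 0.17, 0.17 and 0.28. Bmal1 did not pass the filter. Without scaling the clock median was -0.05, still above the -0.30 of all genes. The hour of tissue collection is not given in the sources used here.

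Of 21 used immediate early genes 18 were lower after MNU in virgin and 15 in parous glands, with medians of -0.30 and -0.13. The medians of all genes in these pairs were 0.007 and 0. In 16 immediate early members the difference of differences was above 0, beside 48% of all genes, and their median was 0.13. Without scaling that median was -0.16, where that of all genes was -0.30, and relative to all genes it lay above 0 in all 12 settings tried. Ccn2, a matricellular growth regulator, read 561 units on parous, 723 on AMV, 417 on parous+MNU and 306 on AMV+MNU, with 0.82. Zfp36, which destabilises cytokine transcripts, read 1182, 1365, 945 and 734 units, with 0.57. Jun stood at 0.13, Egr1 at 0.02 and Fosl2 at -0.51, and Fos was blank on both untreated arrays.

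The 15 used p53 and DNA damage genes had a median of 0.04, with 9 above and 6 below 0. None was 1.5-fold in either direction, which says little where 2% of all genes were lower and 1.22% higher. Bax, which promotes apoptosis, was lowest at -0.44 and was set by AMV+MNU, Ccng1, a p53 target, stood at -0.33 and Apaf1, of the apoptosome, was highest at 0.32. Cdkn1a, the p53 target p21, read 275, 307, 290 and 337 units on parous, AMV, parous+MNU and AMV+MNU and stood at -0.06. Mdm2, another p53 target, stood at 0.23 with parous at the floor. Mgmt, which removes the methyl group that MNU leaves on guanine, read 611, 779, 617 and 761 units, lower on both parous arrays, with a difference of differences of 0.05. Among 14 repair genes Pms2, of mismatch repair, was lowest at -0.75, with AMV at the floor. The list median was -0.10.

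Among interferon response genes 10 of 13 lay below 0, beside 52% of all genes, with -0.19 as their median, Usp18 lowest at -0.57 and Cxcl10 at -0.42. Acute phase genes were divided, 6 above and 6 below 0, with S100a9, a calprotectin subunit, highest at 0.62. Endothelial genes had a median of 0.25 over 6 members, with Pecam1 at 0.40. Each was lower after MNU in virgin glands, where the median of all genes was 0.007. Without scaling the endothelial median was -0.17, above the -0.30 of all genes. Among growth factors and receptors Igfbp3, which binds insulin-like growth factors, stood at 0.76, with AMV+MNU lowest at 2523 units against 3763, 4464 and 3606 on parous, AMV and parous+MNU. Tgfb3 stood at 0.49, Igf2 at -0.45 and Ghr at -0.20. Areg, a ligand of the EGF receptor, was blank on parous+MNU, and Esr1 and Pgr did not pass the filter. Ribosomal protein genes had a median of 0.03 over 17 members, with none 1.5-fold in either direction, and without scaling of -0.43, below the -0.30 of all genes.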

How the data were processed

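Total RNA of the mammary gland was measured in 4 groups with 1 array each. The authors deposited positive intensity values on a linear scale, with blanks; how images were read, what a blank means and whether values were scaled is not given in the sources used here. Array medians differed by up to 1.33 times. Features with a value on all 4 arrays were put on the log2 scale and quantile normalized. Lower values were set to 174.4 units, percentile 40 of all values, and a feature stayed where its highest array passed 210.4 units, percentile 50. Of the 20500 features, 12750 carry 1 gene symbol, 12720 of them matched by gene ID to RefSeq names of GRCr8; 7745 have none and 5 several. A gene is its brightest kept feature. The floor cuts falls of dim genes. No column of another sample was present.

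With 1 array per group no test was made: genes were counted by fold. The procedure was tested on simulated data. The genes named are the 12 highest and 12 lowest at 2-fold or more, up to 4 per list with the largest absolute difference, and a fixed set; other members named illustrate their list and were chosen after their values were seen. Members and the 32 lists were chosen with earlier results of these data known. Alternatives covered scaling, background, floor, filter, features of a gene, fold and position. Python 3.11.15, numpy 2.4.6, pandas 2.3.3 and matplotlib 3.10.9 were used.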

Additional observations from a re-analysis of the deposited data

Results flagged for a closer look

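In 13 of the 26 genes at least 2-fold different the MNU difference had opposite signs in virgin and parous glands, each beyond the robust SD of its pair over all genes (0.187 in virgin and 0.194 in parous glands). Over all 5758 genes 136 met the same condition. With 1 array per group these differences were not tested, and the choice of genes by their difference favours opposite signs. Csn1s2a had a difference of differences of -2.002 and Wap of -1.07, Cks2 of -1.49, Ube2c of -1.41 and Racgap1 of -1.18, Zfyve9 of -1.23 and Foxj2 of 1.11. The values were -1.10 for Cstf2t, -1.05 for Arhgap11a, -1.04 for Diablo, -1.03 for Rbm4, -1.02 for Mep1b and -1.01 for Il1rl1, of which Cstf2t, Diablo and Rbm4 lie in the last row of the assumed layout. Foxj2 was lower after MNU in virgin and higher in parous glands, and the other 12 the reverse. For Zfyve9 and Foxj2 a second kept feature gave -0.20 and 0.42.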

How the results depend on the processing

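No paired analysis was possible because each group has 1 array. Each alternative changed 1 choice. No gene at least 2-fold different changed sign under any alternative. Median centring, quantile normalization over all values, no filter, features averaged per gene and features taken singly kept all counts within 1.5 times. Counts outside that range are given as lower, higher, set by AMV+MNU and set by AMV, where the main values are 22, 4, 8 and 4. As deposited they were 67, 1, 13 and 0, with the 1st percentile subtracted as background 45, 24, 17 and 7, at 1.5-fold 115, 70, 41 and 17, at 3-fold 1, 1, 0 and 0, and with the local median over 15 by 15 positions removed 13, 5, 5 and 0. Higher genes numbered 8 with no floor and 8 with the floor at the 25th percentile. With the strict filter 2 were higher and 5 set by AMV+MNU, and with the other arrays within 0.3 the AMV+MNU count was 5. The strict filter left 16 lower genes and lost the calls of Cks2, Elovl6, Il1rl1, Mep1b, Racgap1, Uhrf1, Magee1 and Sos2. Without the last layout row, an alternative chosen after seeing the data, the AMV count was 0. Of the 26 genes 23 kept their call as deposited and 15 with the local median removed, where Cks2, Racgap1, Uhrf1 and Cldn7 were among those lost. The cell cycle median ranged from -0.76 to -0.27 and the fatty acid synthesis median from -1.27 to -0.21, lowest as deposited and highest without a filter. The number of arrays limits the precision of every value.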

Other observations

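Of 3756 kept features without a gene symbol, 13 reached 2-fold in the difference of differences, 8 of them on the higher and 5 on the lower side. Feature 15181 was lowest, at 347, 266, 347 and 930 units on parous, AMV, parous+MNU and AMV+MNU, with -1.81, and was set by the AMV+MNU array. Features 16817 and 16922 were set by a low AMV+MNU array, at 1.60 and 1.35. These features have no gene name in the annotation used here.

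Imprinted H19, chosen after its values were seen, was 1 of 9 genes (0.156%) in which the AMV+MNU array alone lay at least 2-fold from the median of the other 3, by 1.06, and its difference of differences was -0.67. Red cell genes had 2 used members, Alas2, which starts haem synthesis, at 0.46 and Ahsp, a chaperone of alpha-globin, at 0.37, both highest on parous+MNU. In skeletal muscle genes the median was 0.17 over 7 members.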
